A study of Danio rerio with 6 samples.

Results

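The genes described here are the keratins and the genes of epidermal cell junctions and envelopes, together with the annexins, read in hindbrain tissue dissected from zebrafish embryos. Members were the rows of the gene table whose name, with letter case ignored, begins with krt, cyt1, anxa, evpl, pkp1 to pkp3, epcam, icn, tp63 or grhl, or is ppl, dsp, dspa or dspb. This rule uses names only and found 48 of the 23025 genes listed. They comprised 13 keratins, 17 annexins, 9 plaque and desmosome genes, 3 epithelial surface and S100 genes, 5 epidermal regulators, and *krtcap2*, which is named for keratinocytes but does not encode a keratin. All 48 passed the filter on low counts, and 20463 genes in all did so.

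RNA-seq libraries were made from hindbrains at 48 hours post fertilization (hpf), 3 from *gas6* mutants and 3 from wildtype embryos. The mutant embryos came from a line homozygous for a CRISPR/Cas9-induced frameshift in *gas6*, which encodes a secreted ligand of receptor tyrosine kinases, and this line also carried the *olig2:EGFP* transgene. The wildtype embryos were Tg(olig2:EGFP)vu12, so that embryos of both genotypes carried the reporter, and its fluorescence guided the dissection. Each library came from a pool of dissected, deyolked tissue. Which frameshift allele was sequenced is not given in the sources used here, and genotype and line of origin cannot be told apart. Nothing states that the 3 libraries of a genotype came from separate clutches, so the p-values measure the spread between these libraries, which may be technical.

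The embryonic skin of the zebrafish has an outer periderm over a basal layer. Keratins are the intermediate filaments of these cells, and each filament pairs a type I with a type II keratin. Desmoplakin, plakophilins and the plakins envoplakin and periplakin tie the filaments to desmosomes and to the cell cortex, while p63 and the Grainyhead-like transcription factors act in epidermal development and epithelial gene expression. Annexins bind membranes in the presence of calcium and are expressed in many tissues, so they mark skin less specifically than the keratins do. Epidermal keratins do not characterise neural tissue, and in a dissected hindbrain they are read here as a measure of the skin that came with it. In such bulk samples, fewer cells of a type and less RNA per cell cannot be told apart.

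The libraries held between 18376627 and 27025868 estimated counts. Levels are CPM, counts scaled to the TMM-adjusted size of each library, a fold change is *gas6* mutant over wildtype on the log2 scale with its standard error (SE), and a gene was called at an adjusted p under 0.05. *gas6* itself was at 5.32, 5.47 and 4.24 CPM in mutants, against 42.9, 37.7 and 36.8 CPM in wildtype (log2 fold change -2.97, adjusted p = 7.24e-08), in the direction of the labels.

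Called members were no more frequent than called genes in general, and the 5 keratins that supply most of the members' counts did not pass the edgeR test, although DESeq2 called *cyt1* and *krt5* up (adjusted p = 0.0341 and 0.0468). Of the 48 members, 8 rose and 2 fell in *gas6* mutants, and 38 did not pass the test. The 10 called members are 20.8% of the members, beside 33.3% of all genes tested. Taken by direction, 16.7% of the members rose, beside 16.7% of all genes, and 4.17% fell, beside 16.6% of all genes. Only *krt1-19d* and the row named *ANXA9* were also changed more than 2-fold, beside 9.65% of all genes in either direction and 6.06% that rose so far. The members' log2 fold changes were small and mostly positive under this scaling, since 38 of 48 were above 0 (79.2%, beside 51.5% of all genes). Their median was 0.20, whereas the median over all genes tested was 0.02. When scaled on other epidermal genes, 25 of 48 were above 0, but the median over all genes was then -0.16. In 12 members all mutant libraries lay above all wildtype libraries and in 4 they lay below, beside 24.8% of all genes above and 24.2% below, or 49.0% in either direction.

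**Figure D1:**
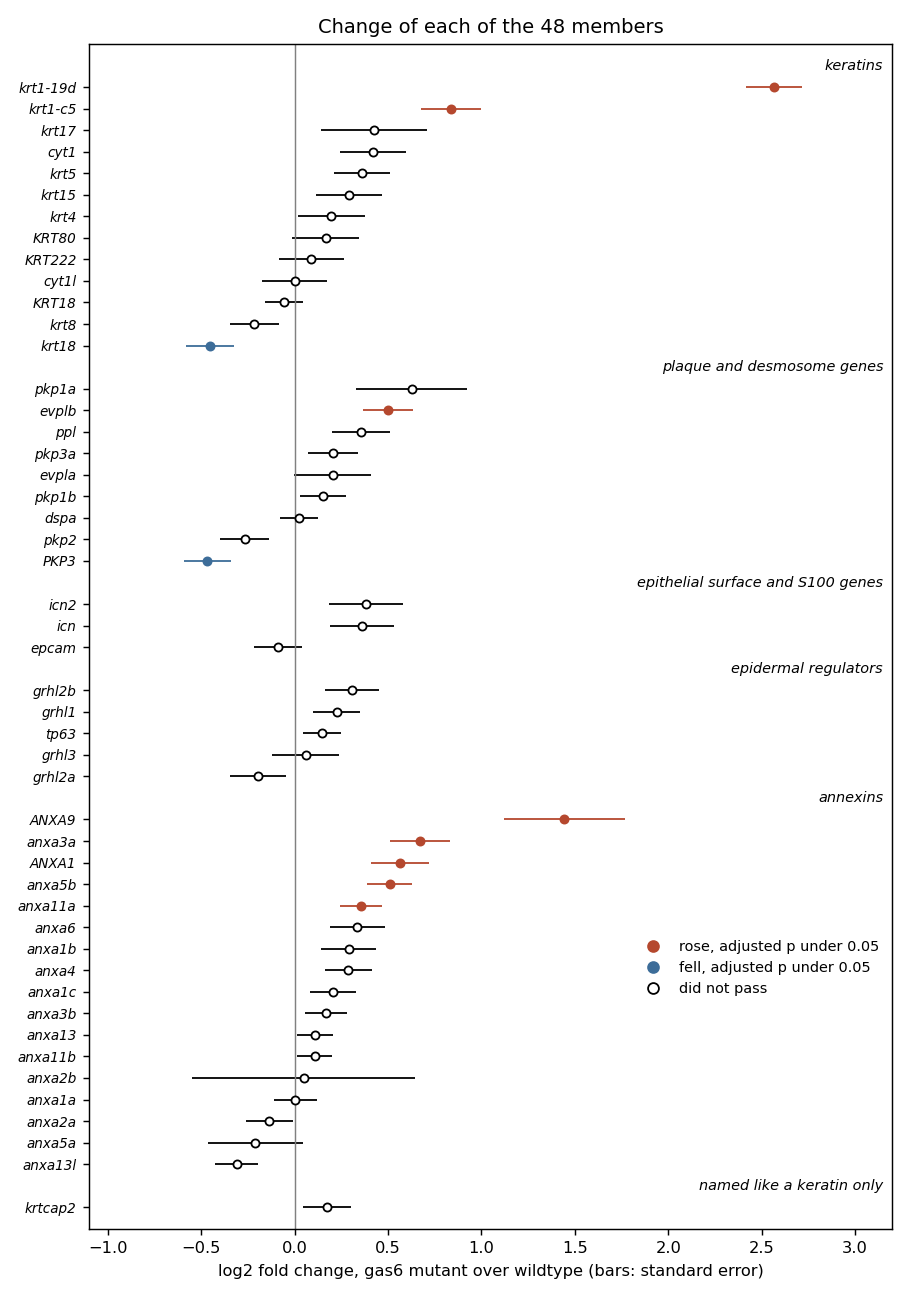
Log2 fold change of each of the 48 members, *gas6* mutant over wildtype, grouped by role. Points are edgeR estimates and bars the SE, red where a gene rose, blue where it fell and open where it did not pass. *krt1-19d* (2.57) and *ANXA9* (1.44) stand to the right of a group that centres on 0.20.

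Summed over the 48 members, the level was 25422, 21032 and 25606 CPM in mutants, against 19640.5, 26481 and 17778 CPM in wildtype. The genotypes overlapped, and wildtype library 2 held the highest sum of all. As a share of all counts the members took 2.73%, 2.23% and 2.62% in mutants and 1.77%, 2.56% and 1.75% in wildtype. The mean sum was 24020 ± 2590 CPM in mutants and 21300 ± 4583 CPM in wildtype (SD, n = 3 each), a log2 difference of 0.17 that is smaller than the spread within a genotype (SD 0.24 on the log2 scale). *krt4*, *cyt1l*, *cyt1*, *krt8* and *krt5* together made up between 86.8% and 90.1% of the members' counts in any library, and *krt4* alone between 44.0% and 48.2%, so the sum is mainly a reading of these 5 keratins.

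**Figure D2:**
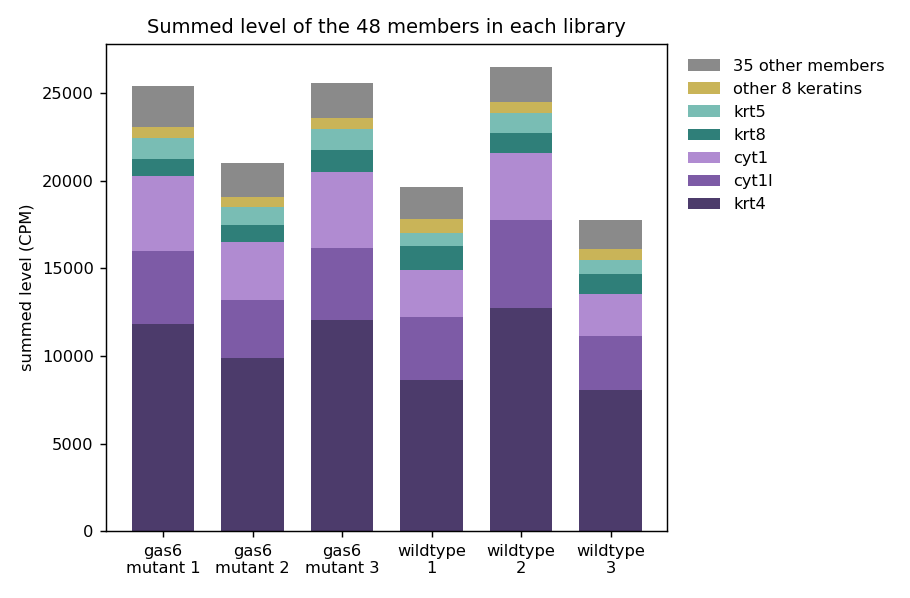
Summed level of the 48 members in each library in CPM, stacked by gene for the 5 most abundant keratins. The mutant bars reach 25422, 21032 and 25606 and the wildtype bars 19640.5, 26481 and 17778, with wildtype library 2 the tallest.

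*krt4*, a type II keratin of the outer skin layer, was at 11841, 9879 and 12034 CPM in mutants, against 8639, 12761 and 8075 CPM in wildtype. Its log2 fold change was 0.20 (95% interval -0.20 to 0.59, adjusted p = 0.429). The type II keratin *krt5* was at 1218, 1039.9 and 1216 CPM in mutants and 778, 1141 and 784 CPM in wildtype (log2 fold change 0.36, interval 0.03 to 0.69, adjusted p = 0.0844). Wildtype library 2 lay above all mutant libraries for *krt4* and among them for *krt5*, while the other wildtype libraries lay below all mutant libraries for both genes.

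The type I keratins *cyt1* and *cyt1l*, whose genes lie side by side, gave different readings. *cyt1* was at 4305, 3292 and 4333 CPM in mutants, against 2714, 3808 and 2393 CPM in wildtype (log2 fold change 0.42, interval 0.04 to 0.80, adjusted p = 0.0861). *cyt1l* was at 4148, 3337 and 4142 CPM in mutants, against 3571, 4989 and 3065 CPM in wildtype (log2 fold change 0.00, interval -0.38 to 0.38, adjusted p = 0.999). The mutant and wildtype means of *cyt1l* were 3876 ± 467 and 3875 ± 997 CPM (SD, n = 3 each), while those of *cyt1* were 3977 ± 593 and 2972 ± 742 CPM, and both genes were highest among wildtype in library 2.

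Wildtype library 2 was the highest wildtype library for *krt4*, *krt5*, *cyt1* and *cyt1l* alike, and for 27 of the 48 members, beside 31.3% of all genes. The median SD of log2 CPM of these 4 keratins was 0.35 in wildtype, beside 0.19 over all genes. In mutants it was 0.17, beside 0.14 over all genes. Over all 48 members the median SD was 0.19 in wildtype and 0.18 in mutants. The similarly abundant *krt8* had an SD of 0.12 in wildtype and 0.23 in mutants. Among mutants, library 1 was highest for 30 of the 48 members, beside 36.7% of all genes. Without wildtype library 2, 12 members rose and 2 fell, and the log2 difference of the summed level was 0.36. *cyt1* and *krt5* were then called (adjusted p = 0.0162 and 0.0104), as were *krt17*, *ppl* and *evpla*, while *anxa11a* no longer was. *krt4* and *cyt1l* were not called without any of the 6 libraries. Without wildtype library 3, 5 members rose and 3 fell. With edgeR no member was called down without mutant library 1 or without mutant library 2, where 4 and 2 were down at an unadjusted p under 0.05.

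**Figure D3:**
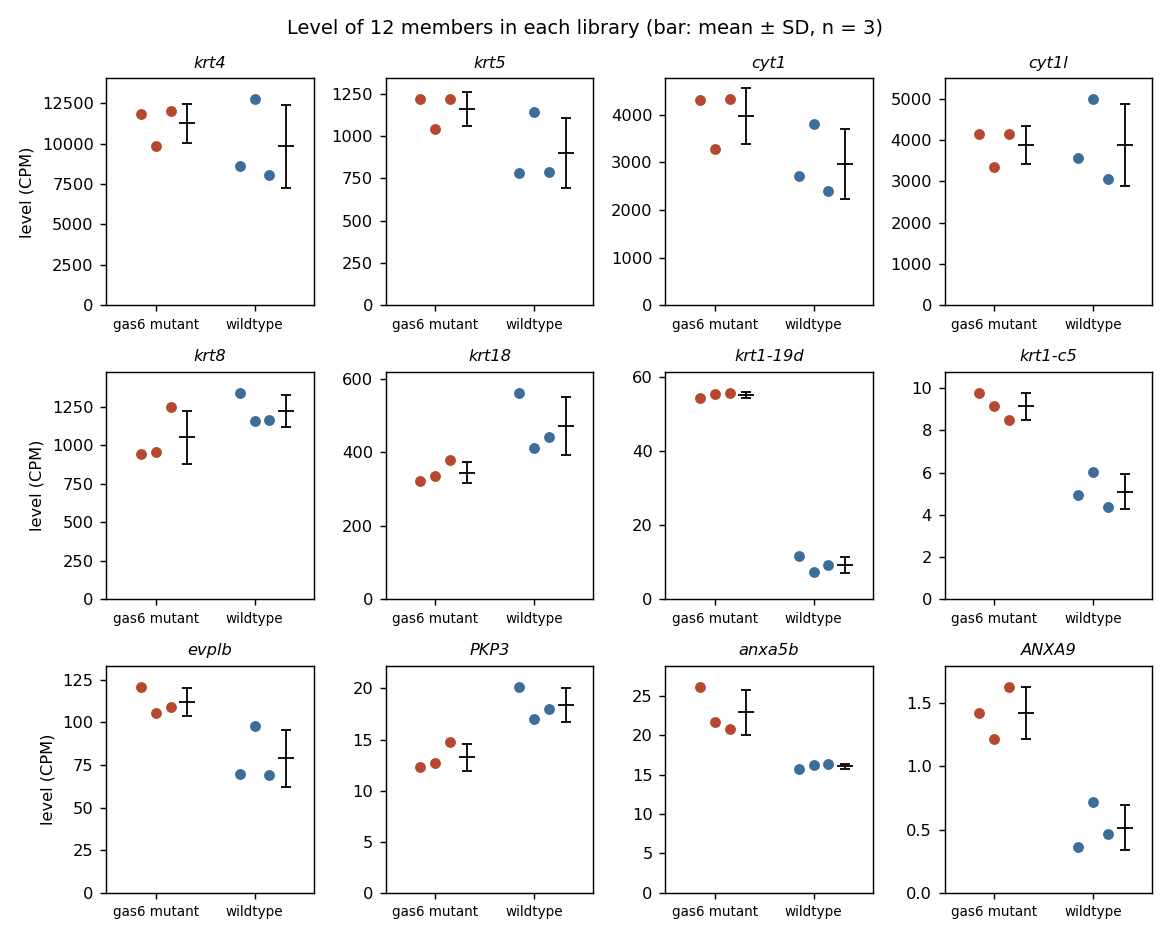
Level in CPM of 12 members in each library, mutants in red and wildtype in blue, with the mean ± SD (n = 3) beside the points. In *krt4*, *krt5*, *cyt1* and *cyt1l* the second wildtype point stands above the other wildtype points, while in *krt1-19d*, *krt1-c5*, *evplb*, *anxa5b* and *ANXA9* all mutant points lie above all wildtype points and in *krt18* and *PKP3* below them.

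The ratio of counts within a library did not overlap between the genotypes for 6 of the 10 pairs of the 5 most abundant keratins. These pairs share genes with each other, and the same share among pairs of other genes was not computed. For single genes, the level did not overlap in 49.0% of all genes tested. The ratio of *cyt1* counts to *cyt1l* counts was 1.04, 0.986 and 1.05 in mutants, against 0.760, 0.763 and 0.781 in wildtype. The mean was 1.02 ± 0.032 in mutants and 0.768 ± 0.011 in wildtype (SD, n = 3 each), so that the ratio was nearly constant within a genotype although wildtype library 2 held much more of both genes than the other wildtype libraries. The summed level of the pair was 8453, 6629 and 8475 CPM in mutants, against 6286, 8797 and 5458 CPM in wildtype, and overlapped. The ratio of *krt4* to *krt5* counts was 9.73, 9.50 and 9.90 in mutants and 11.1, 11.2 and 10.3 in wildtype. These ratios were formed after the values had been seen and are given without a test. Both *cyt1* and *cyt1l* had fractional counts, as arises when reads matching several genes are divided among them, and whether this division enters the ratio was not tested.

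The clearest change among the keratins was that of *krt1-19d*, a type I keratin with far fewer counts than those above. It was at 54.2, 55.5 and 55.7 CPM in mutants, against 11.5, 7.18 and 9.23 CPM in wildtype. These levels correspond to 1070, 1552 and 1539 counts in mutants and 253, 171 and 198 counts in wildtype, all whole numbers. The mean was 55.1 ± 0.786 CPM in mutants and 9.31 ± 2.17 CPM in wildtype (SD, n = 3 each), a 5.93-fold difference (log2 fold change 2.57 ± 0.15 SE, adjusted p = 4.83e-07). The mutant libraries were almost equal. In wildtype the lowest value was that of library 2, the library with the highest *krt4*, so the gene did not follow the abundant keratins from library to library. Leaving out any 1 library gave log2 fold changes between 2.39 and 2.75.

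*krt1-19d* stands at 1 end of a run of 7 neighbouring protein-coding keratin genes on chromosome 19 of the RefSeq annotation of GRCz12tu, which is not the build of the files and serves here only for names and gene order. In that order the run is *krt1-19d*, *krt1-19e*, *krt92*, *cyt1l*, *cyt1*, *krt17* and *krt91*, and the log2 fold changes were 2.57, 0.63, -0.37, 0.00, 0.42, 0.43 and 0.38. Within this run 3 genes rose (*krt1-19d*, *krt1-19e* and *krt91*), *krt92* fell, and *cyt1l*, *cyt1* and *krt17* did not pass. The direct neighbours *krt1-19e* and *krt92* thus changed in opposite directions, and the 95% interval of *krt1-19d* (2.24 to 2.89) lay above that of its neighbour *krt1-19e* (0.32 to 0.94). When 1 library was left out, *krt92* was called in 2 of 6 fits and *krt91* in 1 of 6, while *krt1-19e* was called in 6 of 6.

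**Figure D4:**
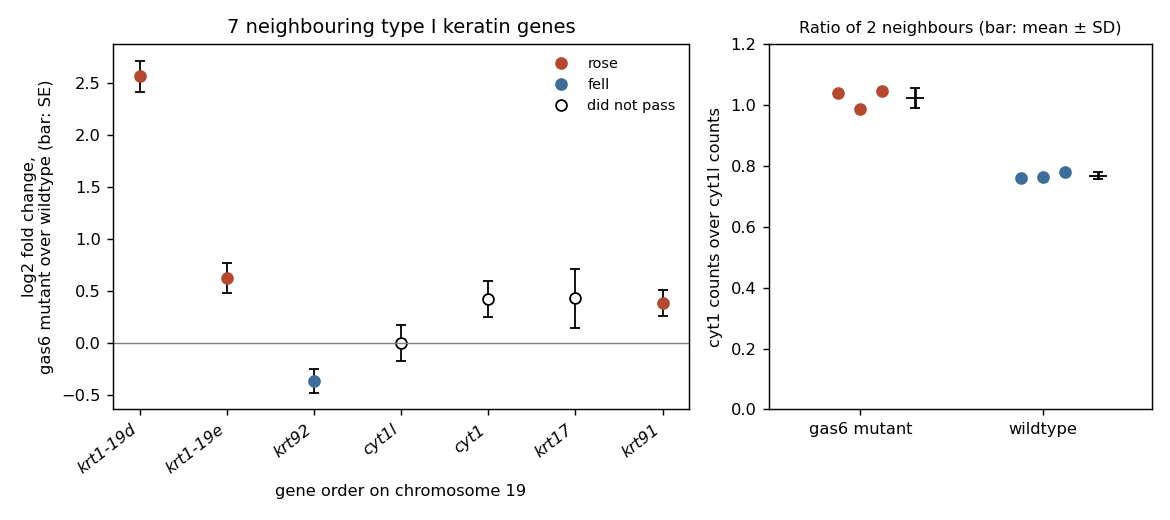
Left, log2 fold change (points) with SE (bars) of 7 neighbouring keratin genes of chromosome 19 in RefSeq order, *gas6* mutant over wildtype, red where a gene rose, blue where it fell and open where it did not pass. Right, ratio of *cyt1* to *cyt1l* counts in each library with the mean ± SD (n = 3), near 1.02 in mutants and 0.768 in wildtype.

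*krt1-19e*, *krt92* and *krt91* are among 7 keratins that the table lists under clone names, so that they fall outside the name rule. They were identified by their RefSeq synonyms. *krt1-19e*, known in zebrafish as a keratin of basal keratinocytes, was at 1131, 939 and 1024 CPM in mutants, against 586, 825 and 594 CPM in wildtype (log2 fold change 0.63 ± 0.14 SE, adjusted p = 0.00573). *krt97* was at 63.0, 55.3 and 80.7 CPM in mutants, against 31.6, 41.3 and 29.7 CPM in wildtype (log2 fold change 0.95, adjusted p = 0.000784). *krt91* rose as well, by a log2 fold change of 0.38 (adjusted p = 0.0313). *krt92* was at 121, 111 and 127 CPM in mutants, against 176, 154 and 134 CPM in wildtype (log2 fold change -0.37, adjusted p = 0.0273), and *krt96*, at 2.84, 2.82 and 3.37 CPM in mutants and 5.51, 4.49 and 4.15 CPM in wildtype, also fell (log2 fold change -0.64, adjusted p = 0.0194). *krt94* and *krt99* did not pass (log2 fold changes 0.23 and 0.53). Of the 13 keratins found by name, 2 rose and 1 fell (23.1% called). With these 7 added, 5 of 20 rose and 3 fell (40.0% called and 25.0% up, beside 33.3% and 16.7% of all genes).

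The simple-epithelium keratins *krt8* and *krt18*, whose products pair with each other, both had negative log2 fold changes, and of them *krt18* fell. *krt18* was at 320.2, 336 and 378 CPM in mutants, against 562, 410.1 and 441 CPM in wildtype (log2 fold change -0.45 ± 0.13 SE, adjusted p = 0.0178), with no overlap between the genotypes. *krt8* was at 944, 958 and 1248 CPM in mutants and 1340.0, 1155 and 1163 CPM in wildtype (log2 fold change -0.22, interval -0.50 to 0.07, adjusted p = 0.227). The ratio of *krt8* to *krt18* counts was 2.95, 2.85 and 3.30 in mutants, against 2.39, 2.82 and 2.63 in wildtype. Wildtype library 1, and not library 2, held the highest level of both genes. The call for *krt18* was lost without mutant library 1 (adjusted p = 0.0727) or without mutant library 2 (adjusted p = 0.0716). A separate row named *KRT18* in capitals was at 85.0 to 97.9 CPM in mutants and 89.5 to 102 CPM in wildtype.

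Of the less abundant keratins, *krt1-c5*, a type I keratin, was at 9.79, 9.15 and 8.51 CPM in mutants, against 4.92, 6.01 and 4.38 CPM in wildtype (log2 fold change 0.84 ± 0.16 SE, adjusted p = 0.00205), and was called without any of the 6 libraries. *krt17* was at 21.1, 13.6 and 16.4 CPM in mutants, against 9.79, 20.2 and 7.83 CPM in wildtype (adjusted p = 0.268), and its wildtype values spread as those of *krt4* did. *krt15* had log2 fold change 0.29, *KRT80* 0.17 and *KRT222* 0.09, and none of these passed.

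Among the plaque and desmosome genes, 1 of 9 rose and 1 fell (22.2% called, beside 33.3% of all genes). *evplb*, which encodes an envoplakin, was at 121, 105 and 109 CPM in mutants, against 69.7, 98.1 and 68.9 CPM in wildtype (log2 fold change 0.50 ± 0.14 SE, adjusted p = 0.0145). The mutant libraries all lay above wildtype library 2, which again stood above the other wildtype libraries. Its paralogue *evpla* was at 72.9, 54.6 and 56.6 CPM in mutants and 37.4, 74.9 and 47.3 CPM in wildtype, and did not pass (log2 fold change 0.20, interval -0.25 to 0.65). *ppl*, which encodes periplakin, was at 209, 164 and 179.7 CPM in mutants and 123, 186 and 122 CPM in wildtype (log2 fold change 0.35, adjusted p = 0.102).

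*dspa*, which encodes desmoplakin, the protein that anchors keratin filaments to desmosomes, was at 119, 115 and 114 CPM in mutants, against 101, 126 and 116 CPM in wildtype. Its log2 fold change was 0.02 with an interval from -0.20 to 0.25. The plakophilins, armadillo-repeat proteins of the desmosome plaque, were split. The row named *PKP3* in capitals was at 12.3, 12.7 and 14.8 CPM in mutants, against 20.2, 17.0 and 18.0 CPM in wildtype (log2 fold change -0.47 ± 0.13 SE, adjusted p = 0.0135), and its call was lost without mutant library 1 or 2 (adjusted p = 0.0561 and 0.0639). *pkp3a* was at 76.7, 57.6 and 60.9 CPM in mutants and 52.1, 65.4 and 51.8 CPM in wildtype and did not pass (log2 fold change 0.20). *pkp2* was lower in each mutant library, at 8.65 to 10.7 CPM, than in any wildtype library, at 11.0 to 12.3 CPM, without passing (log2 fold change -0.27, adjusted p = 0.141). *pkp1a*, at 1.23 to 1.62 CPM in mutants and 0.592 to 1.12 CPM in wildtype, and *pkp1b*, at 24.0 to 30.4 CPM in mutants and 22.4 to 27.0 CPM in wildtype, did not pass either.

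None of the 5 epidermal regulators passed with edgeR, none had an unadjusted p under 0.05, and none passed with DESeq2. *tp63*, which encodes the p63 transcription factor of basal keratinocytes, was at 58.8, 62.6 and 68.6 CPM in mutants, against 53.6, 57.5 and 60.4 CPM in wildtype. Its log2 fold change was 0.15 with an interval from -0.07 to 0.37 (adjusted p = 0.283). *grhl1* was at 24.7, 20.7 and 20.4 CPM in mutants and 16.3, 20.2 and 19.8 CPM in wildtype, and *grhl2b* was at 11.3, 13.0 and 9.56 CPM in mutants and 8.97, 9.03 and 9.37 CPM in wildtype. The genotypes did not overlap in either gene, yet neither passed the test (log2 fold changes 0.22 and 0.31, adjusted p = 0.199 and 0.12). Of all genes tested, 49.0% likewise did not overlap, 24.8% with mutants above wildtype. *grhl2a* had a log2 fold change of -0.20 and *grhl3*, which in zebrafish is expressed in the enveloping layer and periderm, of 0.06. The median SD of log2 CPM of the 5 regulators in wildtype was 0.087, beside 0.35 in *krt4*, *krt5*, *cyt1* and *cyt1l*. Over all 48 members it was 0.19. In mutants the regulators (0.16) and these 4 keratins (0.17) were alike in this measure. Wildtype library 2 was the highest wildtype library for 2 of the 5 regulators.

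None of the 3 epithelial surface and S100 genes passed with edgeR, at an unadjusted p under 0.05 or with DESeq2. *epcam*, which encodes an epithelial cell adhesion molecule, was at 202, 146 and 158 CPM in mutants, against 185, 193 and 159 CPM in wildtype (log2 fold change -0.09, interval -0.37 to 0.19). *icn* and *icn2*, which encode S100 proteins of the ictacalcin group, were highest in mutant library 1. *icn* was at 366, 264 and 211 CPM in mutants and 250.2, 213 and 192 CPM in wildtype (log2 fold change 0.36, adjusted p = 0.128), and *icn2* at 118, 68.9 and 74.4 CPM in mutants and 67.9, 80.7 and 51.4 CPM in wildtype (log2 fold change 0.38, adjusted p = 0.161).

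Of the 17 annexins, 5 rose (29.4%, beside 16.7% of all genes) and none fell with edgeR (beside 16.6% of all genes). In either direction that is 29.4% called, beside 33.3% of all genes. The median log2 fold change of the annexins was 0.21. At an unadjusted p under 0.05, 7 were up and 1 was down, and DESeq2 called 5 up and 0 down. *ANXA9*, in capitals in the table, was at 1.42, 1.22 and 1.63 CPM in mutants, against 0.364, 0.714 and 0.466 CPM in wildtype. That corresponds to only 28, 34 and 45 counts in mutants and 8, 17 and 10 counts in wildtype, and the log2 fold change was 1.44 ± 0.32 SE (adjusted p = 0.00511). *anxa3a* was at 18.2, 11.8 and 14.6 CPM in mutants and 10.1, 9.20 and 8.67 CPM in wildtype (log2 fold change 0.67, adjusted p = 0.00785). *anxa5b* was at 26.2, 21.7 and 20.9 CPM in mutants, against 15.7, 16.2 and 16.3 CPM in wildtype (log2 fold change 0.51, adjusted p = 0.00705).

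The remaining annexins that rose were *ANXA1*, in capitals (log2 fold change 0.56, adjusted p = 0.0154), and *anxa11a* (0.35, adjusted p = 0.0308). *ANXA1* was at 26.7, 21.1 and 20.3 CPM in mutants and 15.6, 18.0 and 12.4 CPM in wildtype. *anxa11a* was at 54.0, 62.6 and 69.2 CPM in mutants and 51.6, 44.8 and 49.2 CPM in wildtype, and it was called without only 2 of the 6 libraries. The more abundant annexins, *anxa1c* and *anxa11b*, had log2 fold changes of 0.21 and 0.11 and did not pass, nor did *anxa1a* (0.00) and *anxa2a* (-0.14). *anxa13l* was lower in each mutant library, at 20.3 to 22.1 CPM, than in any wildtype library, at 23.7 to 29.4 CPM, without passing (adjusted p = 0.0544).

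Other genes of the epidermis, which the name rule does not select, were taken from a list of 34. Of 33 such genes tested, 12 rose and 3 fell (45.5%, beside 33.3% of all genes), with a median log2 fold change of 0.26. Their summed level was 1796, 1577 and 1600.4 CPM in mutants, against 1368, 1608 and 1430.1 CPM in wildtype, and overlapped, with wildtype library 2 again the highest of its genotype. *col17a1a*, which encodes a collagen of the hemidesmosomes of basal cells, was at 118, 120.0 and 103 CPM in mutants, against 48.8, 70.5 and 59.9 CPM in wildtype (log2 fold change 0.93, adjusted p = 0.000284). *cldnh*, which encodes a claudin of tight junctions, had a log2 fold change of 0.96 (adjusted p = 0.000514). The claudin genes *cldni* (0.32) and *cldne* (0.44), *col17a1b* (0.51) and the transcription factor gene *tfap2c* (0.54) rose as well. So did the transglutaminase genes *tgm1* (0.52) and *tgm1l1* (0.57), and *s100v2*, *lgals3l*, *klf4b* and *ovol1*. When 1 library was left out, *col17a1a*, *cldnh* and *tgm1l1* were called in 6 of 6 fits. *col17a1b* and *s100v2* were called in 5, *tfap2c* and *klf4b* in 4, *cldne* in 3 and *cldni* in 2. *lgals3l* and *ovol1* were called in only 1 of these fits and *tgm1* in 0. Among the genes that fell were *cldn7b* (-0.38) and the integrin gene *itgb4* (-0.55). *itgb4* was at 37.3, 35.3 and 31.5 CPM in mutants, against 36.0, 56.8 and 59.1 CPM in wildtype, so the genotypes overlapped. It was called in 2 of the 6 fits that left out 1 library, and *cldn7b* in 4. The junction genes *jupa* (0.02), *perp* (0.03), *cdh1* (0.05), *dsg2* (0.18) and *dsc2l* (-0.036) did not pass. Nor did *jupb* (0.74, adjusted p = 0.0524), at 3.43 to 4.56 CPM in mutants and 1.77 to 3.61 CPM in wildtype.

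Split by layer, the periderm list held 11 genes, 8 of them members. Only *cldne* and *cldni* rose (18.2% of the list, beside 16.7% of all genes) and none fell with edgeR. When 1 library was left out, *cldne* was called in 3 of 6 fits and *cldni* in 2 of 6. At an unadjusted p under 0.05, 5 genes of the list were up and 0 down, and DESeq2 called 4 up and 0 down. All 11 log2 fold changes were above 0 (median 0.35), beside 51.5% of all genes. That of *cyt1l* was 0.00 and changed direction in 9 of 15 other settings. Its sum was 22185, 18065 and 22281 CPM in mutants, against 16112, 23269 and 14719 CPM in wildtype. The basal list held 7 genes, of which 3 rose (42.9%, beside 16.7% of all genes) and 2 fell (28.6%, beside 16.6%). Those that rose were *krt1-19e*, *col17a1a* and *col17a1b*. *itgb4* was among those that fell, although its levels overlapped between the genotypes, and *tp63* and *itga6b* did not pass. The basal sum was 1408, 1213 and 1281 CPM in mutants, against 772, 1071 and 828 CPM in wildtype, without overlap. *krt1-19e* supplies most of the counts in that sum, which therefore largely repeats the level of this gene.

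Genes of the ionocytes, which lie in the skin, and of the fin fold, which the skin covers, also rose in part. Of 9 ionocyte genes tested, *atp1a1a_4* (log2 fold change 0.39), *trpv6* (1.09) and *gcm2* (1.00) rose and none fell. That is 33.3% called, the same as the 33.3% of all genes, while 16.7% of all genes rose. *trpv6* was at 5.42, 4.58 and 5.68 CPM in mutants, against 1.59, 4.28 and 1.40 CPM in wildtype, where library 2 was again the highest. When 1 library was left out, *trpv6* was called in 2 of 6 fits, *atp1a1a_4* in 4 of 6 and *gcm2* in 6 of 6. The ionocyte genes that did not pass had log2 fold changes between -0.37 (*slc12a10_2*) and 0.67 (*ca15a*). The summed level of the list was 119.8 to 129 CPM in mutants and 93.0 to 109 CPM in wildtype. Its largest part was *atp1a1a_4*, at 65.9 to 75.7 CPM in mutants and 49.0 to 58.4 CPM in wildtype. Of 8 fin fold genes, 5 rose (62.5%, beside 16.7% of all genes). They were *hapln1a* (0.49), *bmp1a* (0.57) and the actinodin genes *and1* (1.52), *and2* (1.66) and *and3* (1.90), which encode structural proteins of the fin fold. The remaining fin fold genes, *fras1* (-0.24), *frem2a* (0.03) and *hmcn1* (0.18), did not pass. The fin fold sum was 885 to 1009 CPM in mutants and 584 to 731 CPM in wildtype. *hapln1a*, at 555 to 619 CPM in mutants and 376 to 449 CPM in wildtype, supplied most of it. *and2* was at 45.1, 47.3 and 58.2 CPM in mutants, against 14.9, 19.6 and 12.9 CPM in wildtype.

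**Figure D5:**
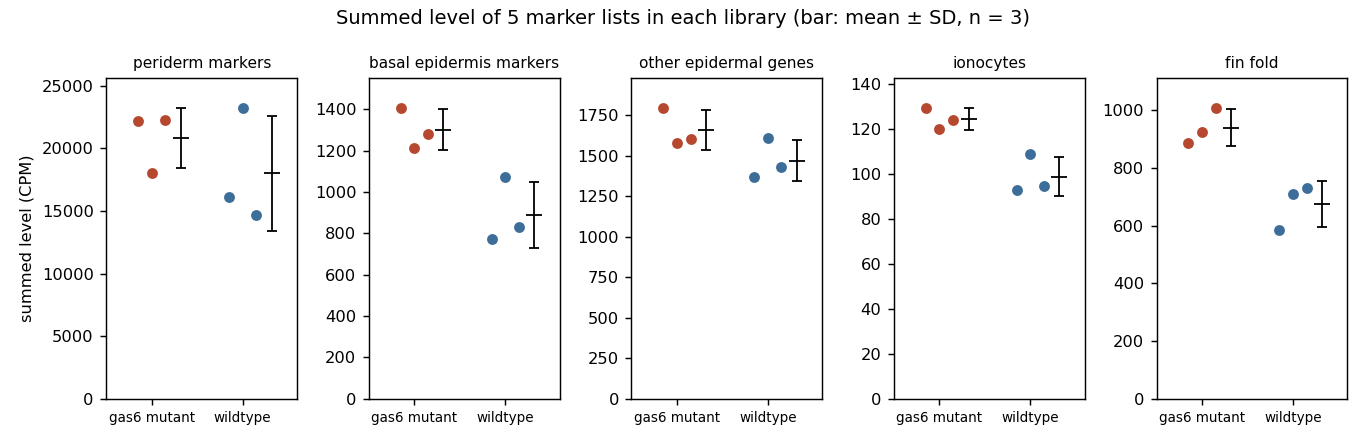
Summed level in CPM of 5 lists of epidermal and fin fold genes in each library, mutants in red and wildtype in blue, with the mean ± SD (n = 3). The periderm and the other epidermal sums overlap between the genotypes, while the basal, ionocyte and fin fold sums do not.

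Other tissues that a dissected hindbrain can carry moved in different directions. Over all genes tested, 16.7% rose and 16.6% fell. All 13 lens genes tested rose (summed level 551 to 1287 CPM in mutants and 1.82 to 38.4 CPM in wildtype), with *crybb1*, *crygm2d1* and *lim2_4* at 0 counts in wildtype library 1. Of 8 pigment cell genes, 7 fell (980.0 to 1115 CPM in mutants and 1627 to 2151 CPM in wildtype). None of 14 skeletal muscle genes passed with edgeR, 2 were up at an unadjusted p under 0.05 and DESeq2 called 1, and their sum was highest in mutant library 3 (30377 to 58389.7 CPM in mutants and 37053 to 39717 CPM in wildtype). Of 10 otic vesicle genes 1 fell, and of 7 notochord genes 1 rose and 3 fell. Of 10 hindbrain identity genes, 6 fell (809 to 903 CPM in mutants and 964 to 1186 CPM in wildtype), and all 10 were detected in every library. No gene of the pigment, muscle, otic, notochord or hindbrain lists was at 0 counts in any library. The part of such differences in the make-up of the pools in the members' values was not tested.

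Scaling the libraries on the other epidermal genes in place of all genes, chosen after the data had been seen, shifted the median log2 fold change of all genes to -0.16. Pan-neuronal genes summed to 4829 ± 406 CPM in mutants and 4316 ± 122 CPM in wildtype under the main scaling (SD, n = 3 each). When the libraries were scaled on them, the median of all genes was -0.14. Under either scaling the same 4 members were called up, namely *krt1-19d*, *krt1-c5*, *anxa3a* and *ANXA9*, and the same 4 down, namely *krt18*, *PKP3*, *pkp2* and *anxa13l*. Of the 48 members, 25 had a log2 fold change above 0 under the epidermal scaling and 28 under the pan-neuronal scaling, with medians of 0.03 and 0.04, which lie above the shifted medians of all genes. The log2 fold change of *krt1-19d* was then 2.38 and 2.41, and that of *krt18* -0.64 and -0.60. The summed level of the members differed by 0.008 and 0.017 on the log2 scale under these scalings. *evplb*, *ANXA1*, *anxa5b* and *anxa11a* were not called under either.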

How the data were processed

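RNA-seq was carried out on pools of hindbrains dissected at 48 hpf, with 3 stranded mRNA libraries per genotype. The authors deposited 1 table of 23025 genes with estimated counts per gene and library, not normalized and with fractional values for genes that share reads. Whole counts in all 6 libraries were held by 45.6% of genes, and 31 of the 48 members had a fractional count. The submitters' processing notes name RSEM 1.2.28, FastQC, DESeq2 and the builds GRCz10 and danRer7, and the authors worked in the Dolphin web interface. The aligner settings and annotation are not given in the sources used here, and no coordinates or sequences are printed. The lowest total of a listed gene was 11. The deposited table also held the authors' own adjusted p-value, log2 fold change and fold change as a ratio, which were not used.

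Samples were grouped by genotype from their labels. Counts were rounded, filtered with filterByExpr (minimum count 10, minimum total 15, which removed 2562 genes), scaled by TMM and tested with the quasi-likelihood test of edgeR 4.0.16 under R 4.3.3 with genotype as the only factor, which leaves 4 residual degrees of freedom. The biological coefficient of variation was 12.5%. Benjamini-Hochberg adjustment ran over the 20463 genes tested. The study's criterion was a change of more than 2-fold. Here a gene was called at an adjusted p under 0.05 alone, and called genes also changed more than 2-fold were counted apart. The SE came from the quasi-likelihood F statistic. The procedure was tested on simulated data. Alternatives were other scalings, filters, DESeq2 1.42.0, glmTreat against a 1.5-fold change, genes with whole counts only, a replicate block and leaving out each library.

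Members and lists were chosen with earlier results of these data known. The 12 members with the highest mean CPM and those changed more than 2-fold were named by rule. So were *tp63*, *epcam* and the grhl, icn, evpl, ppl, dsp and pkp members. On each other list, up to 4 genes with the highest mean CPM were candidates for naming. Candidates that were not called are named only in part, so the names from these lists depend on the calls. All other genes were named after their values had been seen. Of the member names, 41 matched a RefSeq symbol, 1 a synonym, and 6 in capitals matched neither with letter case kept. Of the names on the other lists, 161 matched the table directly, 12 through a RefSeq synonym and 3 did not. Skeletal muscle, erythrocyte (2 of 7 rose), macrophage (0 of 7 passed with edgeR, DESeq2 or at an unadjusted p under 0.05), endothelium (1 rose and 1 fell of 7) and pan-neuronal (7 rose and 2 fell of 19) lists served to describe the tissue. On the pan-neuronal list 36.8% rose and 10.5% fell, on the erythrocyte list 28.6% rose, and on the endothelium list 14.3% rose and 14.3% fell. Over all genes tested, 16.7% rose and 16.6% fell. A gene of the epidermal lists is counted in them but not reported here.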

Additional observations from a re-analysis of the deposited data

How the results depend on the processing

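Counts of calls moved under several settings, while DESeq2 size factors, upper quartile scaling and the other filters on low counts gave the same 8 and 2 members. Against 8 members called up and 2 down, scaling on pan-neuronal genes gave 4 up and 4 down, scaling on the other epidermal genes 4 up and 4 down, genes with whole counts only 5 up and 1 down (of 17 members tested), and glmTreat against a 1.5-fold change 2 up and 0 down. The member called down with whole counts only was *anxa13l*, since *krt18* and *PKP3* have fractional counts and were not tested there. Of the 7 keratins under clone names 3 rose and 2 fell. With them added, 3 more were called up and 4 in all were called down. Leaving out 1 library gave 5 to 12 members up and 0 to 3 down, and DESeq2 gave 10 up and 2 down. Members changed more than 2-fold numbered 2 under each of these settings. Against 12 other epidermal genes called up and 3 down, the pan-neuronal scaling gave 2 up, whole counts only 2 up and 1 down, glmTreat 2 up and 0 down, and the epidermal scaling 3 up, while leaving out 1 library gave 5 to 13 up and 0 to 3 down. The epidermal scaling holds the summed counts of these other epidermal genes equal between libraries, so its count for them is partly fixed by the scaling. The median log2 fold change over all genes was -0.14 under the pan-neuronal and -0.16 under the epidermal scaling, against 0.02 in the main fit. How much of the change in counts goes with this shift was not tested.

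*krt1-19d*, *ANXA9*, *krt1-c5*, *anxa3a* and *anxa5b* were called without each of the 6 libraries in turn, *evplb*, *ANXA1*, *krt18* and *PKP3* in 4 of 6 and *anxa11a* in 2 of 6. No called member changed direction. Of the members named but not called, 8 did. Under the pan-neuronal and the epidermal scaling the log2 fold changes were -0.16 and -0.16 for *cyt1l*, -0.044 and -0.064 for *anxa11b*, -0.13 and -0.15 for *dspa*, -0.0025 and -0.024 for *pkp1b*, -0.00063 and -0.023 for *tp63*, and -0.10 and -0.10 for *grhl3*. *cyt1l* was at -0.0066 with DESeq2 size factors, -0.0071 without the filter and -0.0082 in DESeq2. When 1 library was left out, *cyt1l* ranged between -0.15 and 0.21, *grhl3* between -0.091 and 0.18, *dspa* between -0.065 and 0.085, *evpla* between -0.0034 and 0.52 and *epcam* between -0.24 and 0.0075. The difference in summed level lay between 0.06 and 0.36 when 1 library was left out.

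Over all genes tested, the deviations of same-numbered libraries from their genotype means were nearly uncorrelated (0.02, -0.06 and 0.04). Whether same-numbered libraries were collected or prepared together is not given in the sources used here. With the replicate block 9 members rose, *icn* being added, and 2 fell, and 6359 genes were called in all, against 6813 without it. Genes at about 1 CPM such as *ANXA9* rest on 8 to 45 counts per library.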
